A study of Populus tomentosa with 6 samples.

Results

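In Chinese white poplar (Populus tomentosa), 123 leaf genes that were already expressed at control temperature stood at least 8 times higher in heated leaves. They are 123 of the 27209 genes listed in the deposited table, and 0.980% of the 12553 genes with a control mean of at least 10 CPM (a gene's count scaled to a library total of 1000000). The members were chosen by their levels in these same libraries. A member had a control mean of at least 10 CPM, a heat mean at least 8 times the control mean, and a lowest heat library above the highest control library. That the members were higher in heat is therefore given by the choice. Their levels and folds below are a description and carry no test.

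When a plant leaf is heated, proteins unfold, and heat shock transcription factors are released to switch on genes for chaperones, which are heat shock proteins that hold or refold damaged proteins. Many such genes are nearly silent in cool leaves, whereas others work at a steady level in unstressed cells and are raised further by heat. Proteins that guard membranes, remove reactive oxygen and mark damaged proteins for breakdown are also commonly raised. Which of these roles the members have is not known from the sources used here. The table gives only identifiers that begin with POPTR, and the species of these gene models is not stated. None of the 27209 identifiers, and so 0 of the 123 members, matched the reference gene table of a Populus tomentosa assembly (PTv2), and no name, function, position, length or sequence was used. The 2 members named below are the one with the highest heat mean and the one with the next highest fold; the others are called by their rank in heat, from 1 (highest mean CPM) to 123. For the same reason the leaf tissue could not be checked against marker genes.

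Both groups grew at day and night temperatures of 25 °C and 20 °C, with days of 16 h at a light level of 350 µmol per m2 per s and nights of 8 h, and no genotype or line is named. The 3 control libraries came from leaves kept at these temperatures, and the age of the control plants is not stated. The 3 heat libraries came from leaves of plants that, after 75 days of growth, were warmed from the start of the light period to 37 °C (0.5 h, then held for 2 h) and on to 45 °C (0.5 h, then held for 5 h). Heated leaves were thus taken 8 h after light onset, whereas the hour of sampling for control leaves is not stated. Separate plants for the libraries of a group are not stated either, so p-values and SDs cover only how these libraries differ, and that may be technical. In whole leaves, more RNA per cell and more cells of one type cannot be told apart, and CPM measures a gene only relative to the rest of its library.

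The libraries held between 6466647 and 8530622 counts. Control library 2 had the smallest total, and its trimmed mean of M-values (TMM) scaling factor, 1.17, was the farthest from 1. Of the 27209 genes listed, 17458 had enough counts to be tested. All 123 members were among them. The smallest sum of control counts of any member was 220 over the 3 libraries, for which counting error alone is 6.74%.

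Control levels of the members were modest and heat levels were high. The control mean ran from 10.02 to 470.4 CPM with a median of 25.6, and the heat mean from 91.6 to 23522 CPM with a median of 325. The ratio of the means ran from 8.002 to 1483, with a median of 11.1. Over the 12553 genes past the control floor the median ratio was 0.806. Most members therefore lay close above the fold that defined them: 90 had a ratio between 8 and 16, 21 between 16 and 32, 7 between 32 and 64, and 5 above 64. In the plot of heat against control means they form a thin upper fringe of the cloud of expressed genes.

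**Figure D1:**
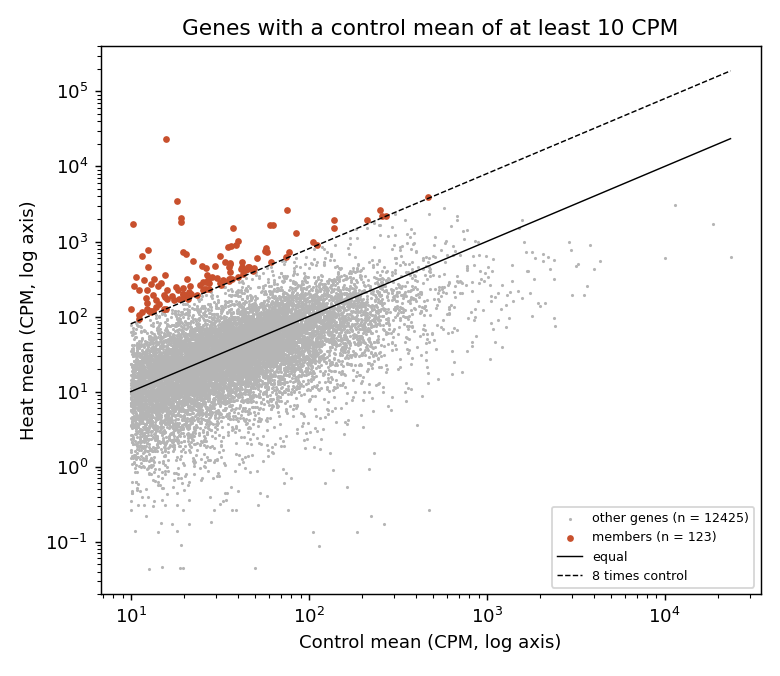
Mean CPM in control leaves (x axis, log) and heated leaves (y axis, log) of genes with a control mean of at least 10 CPM; red points are the 123 members, grey points other genes, and 5 genes with no heat count are not drawn. Most members sit just above the dashed line of 8 times the control mean, and the leading member stands apart at 15.9 CPM in control and 23522 CPM in heat.

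The edges of the group were not gaps in the data. Just inside the fold, members had ratios of 8.002, 8.02 and 8.05. Just outside it, genes with no overlap between groups had ratios of 7.95, 7.90 and 7.79. There were 39 such genes with a ratio from 7 to under 8, and 26 members with a ratio from 8 to under 9. At the control floor, the lowest member stood at 10.02 CPM in control and 127 CPM in heat, and the nearest gene below the floor at 9.83 and 89.8 CPM. Another gene just below it, at a control mean of 9.83 CPM, reached 7298 CPM in heat, 742 times its control mean, and was left out by the floor alone. A further 2 genes passed the floor and the fold but overlapped. One of these stood at 77.7, 51.5 and 24.4 CPM in control libraries 1 to 3 and at 925, 35.0 and 731 CPM in heat libraries 1 to 3, so that heat library 2 fell among the controls. The other was at 7.35, 50.9 and 4.10 CPM in control and 175, 397 and 46.0 CPM in heat, where control library 2 lay above heat library 3.

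A gene raised from a low level took the most read counts of any gene in heated leaves. Gene lengths were not used, so places in the order of CPM are places by counts, not by transcript number. POPTR_0010s20300 had 142, 122 and 80 counts in control libraries 1 to 3, which is 19.3, 18.9 and 9.38 CPM. In heat libraries 1 to 3 it reached 23795, 21729 and 25042 CPM. The groups lay far apart, and the heat libraries lay close together. Its mean rose from 15.9 ± 5.62 CPM (SD, n = 3) to 23522 ± 1673 CPM (SD, n = 3), a ratio of 1483. By mean CPM it was gene 10663 of the table in control leaves and gene 1 in heated leaves. The fitted log2 fold change was 10.72 with a standard error of 0.56, and the ratio stayed between 1232 and 1666 with any 1 library left out.

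The second highest fold was that of POPTR_0010s06320, the member of heat rank 3. It stood at 24.0, 17.2 and 13.2 CPM in control libraries 1 to 3 and at 4586, 2819 and 2990.3 CPM in heat libraries 1 to 3. All heat values were far above the control values, and heat library 1 was well above the other heat libraries. The mean went from 18.1 ± 5.42 CPM (SD, n = 3) to 3465 ± 974 CPM (SD, n = 3), a ratio of 191 and a fitted log2 fold change of 7.75 with a standard error of 0.45. In the order of all genes by mean CPM it moved from place 10050 to place 12.

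Of the 5 members raised over 64-fold, all had control means under 20 CPM. Beside those 2, rank 12 stood at 12.9, 12.5 and 5.63 CPM in control and at 1643, 2086 and 1467 CPM in heat, 167 times higher on the means. Rank 11 stood at 21.5, 24.9 and 11.3 CPM in control and at 2186, 1627 and 1582 CPM in heat, 93.6 times higher. In both, as in the 2 named members, control library 3 was the lowest of its group. Rank 8 was the most even of the 123 members in heat, at 2034, 2008 and 2036 CPM, and the most uneven in control by its coefficient of variation, at 7.90, 45.3 and 4.34 CPM. Leaving out control library 2 moved its ratio from 106 to 331.

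Members raised between 32-fold and 64-fold numbered 7, and their groups were also far apart. The most abundant of them, of rank 4, stood at 63.8, 68.2 and 95.5 CPM in control libraries and at 2413, 2791 and 2789 CPM in heat libraries. Rank 15 stood at 34.0, 37.1 and 41.7 CPM in control and at 1574, 1327 and 1669 CPM in heat. Rank 25 had the highest ratio of the 7, 62.0, from 11.0, 15.9 and 10.4 CPM in control to 733, 846 and 740.1 CPM in heat. In these 3 the highest library of each group was less than 2 times the lowest. Rank 46 was less even in control, at 6.81, 21.5 and 9.03 CPM, and its ratio of 36.6 became 57.5 without control library 2. The remaining 3, of ranks 29, 30 and 32, had ratios of 36.7, 33.9 and 55.8.

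At the other end were genes that control leaves already held in quantity and that rose by little more than the required fold. The control mean reached 200 CPM in 5 members, of heat ranks 2, 5, 6, 7 and 10. Rank 2 was the most abundant member of control leaves. It stood at 359.7, 366 and 686 CPM in control and at 4484, 3618 and 3643 CPM in heat, a ratio of 8.32. Control library 3 was high here, and without it the ratio was 10.8. Rank 5 went from 201, 279 and 270.0 CPM to 3036, 2589 and 2301 CPM, a ratio of 10.6. The other three had ratios of 8.52, 8.002 and 8.94, and control library 3 was the highest control library in ranks 6 and 7 and the lowest in rank 10.

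**Figure D2:**
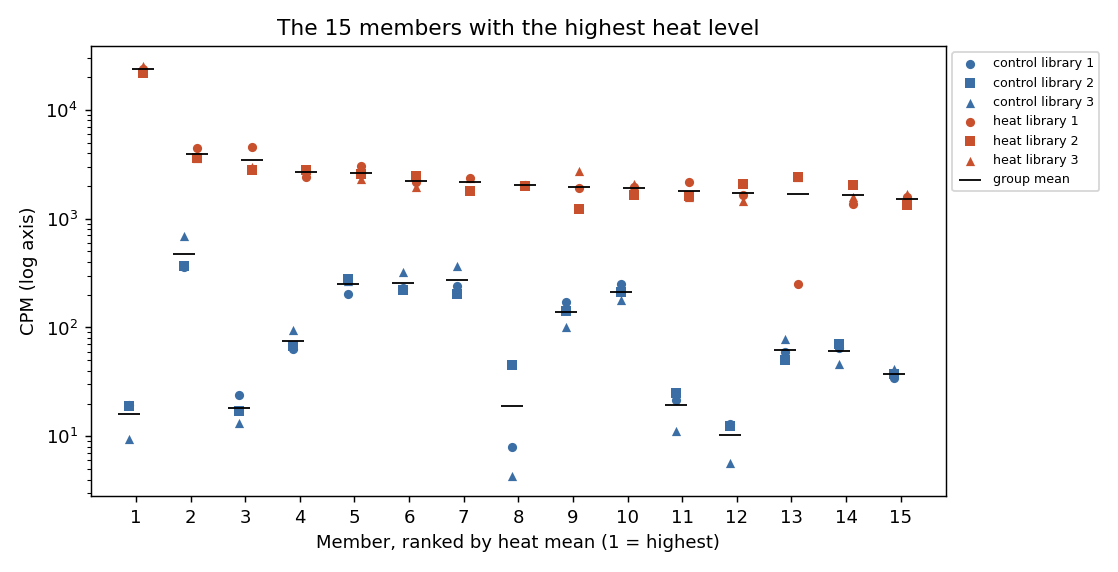
CPM (log axis) of the 15 members with the highest heat mean in each of the 6 libraries, with blue for control, red for heat, a marker shape for each replicate number and a bar for each group mean. Members of ranks 1, 3, 8, 11 and 12 start under 20 CPM on the control mean, and ranks 2, 5, 6, 7 and 10 above 200 CPM; heat library 1 lies far below the other heat libraries in rank 13.

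The order of the members changed between control and heat. Across the 123 members, control and heat means had a Spearman rho of 0.667, and control means and ratios a rho of -0.263. These are descriptions over genes measured in the same libraries. A fixed minimum ratio ties the heat mean to the control mean, and the ratio contains the control mean, so both values are shaped by the rule. Among the 31 members with the lowest control means (10.02 to 15.6 CPM) the median ratio was 12.7, and 13 had a ratio of at least 16. Among the 31 with the highest (41.9 to 470.4 CPM) the median ratio was 9.95, and 3 had a ratio of at least 16. The lists of the 10 most abundant members in control and in heat shared 6 genes.

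All 6 libraries are shown for every member in the plot of members by rank. The smallest gap was that of rank 65, whose lowest heat library (126 CPM) was 1.96 times its highest control library (64.4 CPM). In 116 of the 123 members the lowest heat library was at least 4 times the highest control library, and in 45 at least 8 times. The no-overlap condition required only that this value exceed 1, but the required 8-fold ratio of means also raises it. These counts are therefore shaped by the rule, and shares of all genes at 4 or 8 times were not computed. Among all tested genes, 26.9% had every heat library above every control library.

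**Figure D3:**
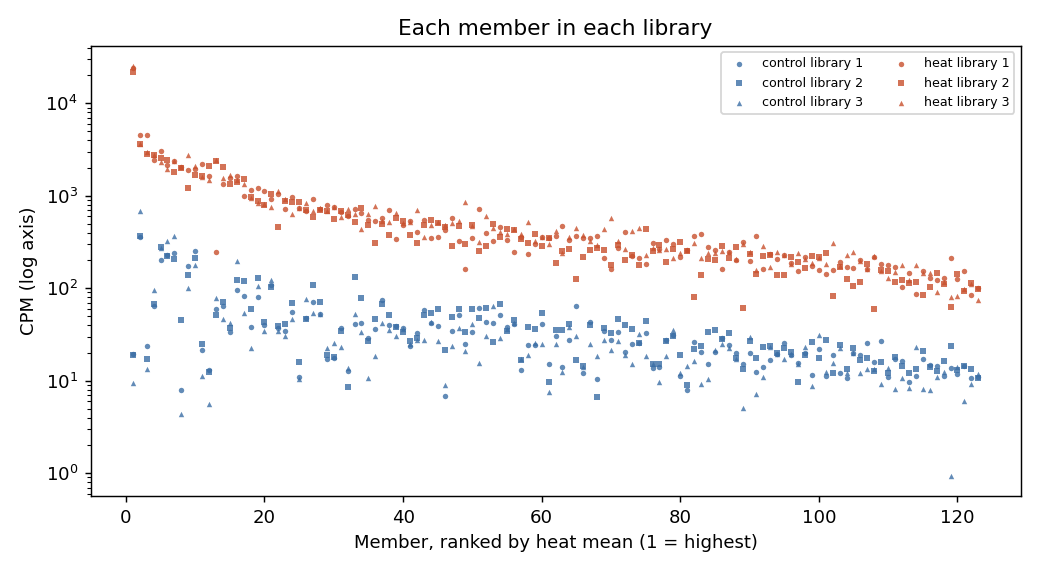
CPM (log axis) of each of the 123 members in each control library (blue) and heat library (red), ordered by heat mean; marker shapes give the replicate number. The groups never overlap, as the rule requires. Single points that leave their band include heat library 1 in rank 13 (249 CPM) and control library 3 in rank 119 (0.938 CPM).

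Together the members went from a small part of the libraries' counts to a much larger one. They held 0.490%, 0.555% and 0.505% of the counts in control libraries 1 to 3 and 9.81%, 8.99% and 10.05% in heat libraries 1 to 3. The means were 0.517% ± 0.0338 (SD, n = 3) and 9.62% ± 0.555 (SD, n = 3). POPTR_0010s20300 alone held 2.38%, 2.17% and 2.50% of the heat libraries. Without it the other members held 0.515% ± 0.0337 of control counts and 7.26% ± 0.391 of heat counts (SD, n = 3 each).

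**Figure D4:**
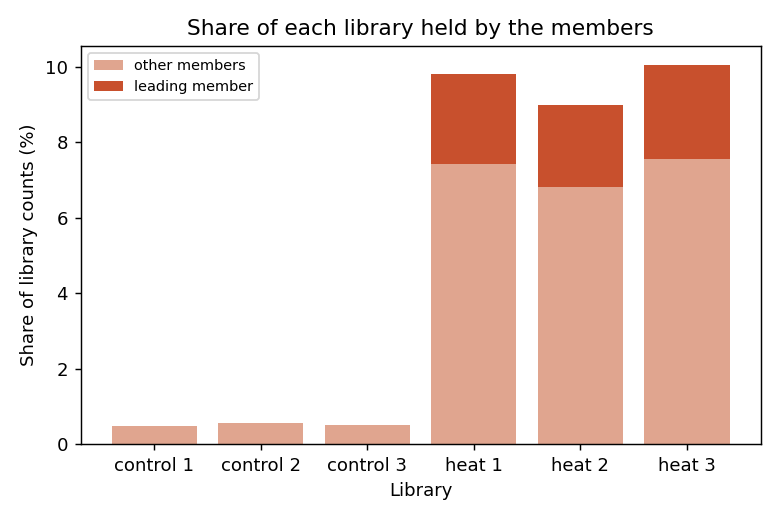
Share of each library's counts (%) held by the 123 members, with the leading member, POPTR_0010s20300, in dark red and all other members in light red. The control libraries lie between 0.490% and 0.555%, and the heat libraries between 8.99% and 10.05%.

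The members' counts were also divided differently among them. The 10 most abundant members of each group held 39.7% ± 7.04 of the members' control counts and 48.3% ± 1.24 of their heat counts (SD, n = 3 each), and POPTR_0010s20300 went from 0.307% ± 0.108 to 24.5% ± 0.414 of them (SD, n = 3 each). In the order of all listed genes by mean CPM, the median place of the members was 8249 in control and 357 in heat. Among the top 100 genes by mean CPM, 0 were members in control and 25 in heat. Among the top 1000, 5 were members in control and 107 in heat.

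Bordering groups of genes also held large parts of the heated libraries. The 324 genes past the same control floor with no overlap and a ratio from 4 to under 8 went from 1.58% ± 0.251 to 8.57% ± 0.576 of counts (SD, n = 3 each). The 134 genes below the floor that reached at least 80 CPM and 8 times their control mean, also with no overlap, went from 0.0534% ± 0.00958 to 10.4% ± 1.01 (SD, n = 3 each). All 3 groups were chosen by level, and no difference between them was tested. The opposite rule, a heat mean of at least 10 CPM and a control mean at least 8 times higher with no overlap, was met by 146 genes, 1.25% of the 11682 genes past that floor. Whether more genes met the rule or its opposite depended on scaling. With CPM scaled by TMM factors the numbers were 152 and 126, with DESeq2 size factors 157 and 122, and with upper quartile factors 129 and 140. The scaled counts for the opposite rule were not planned in advance.

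The fit over the whole table, an edgeR quasi-likelihood test with adjustment by the Benjamini-Hochberg method, called all 123 members higher in heat at an adjusted p below 0.05, against 28.1% of the 17458 tested genes. Tested against a 2-fold change, all 123 were called (12.4% of tested genes), and against a 4-fold change 120 (4.21%). At an adjusted p below 0.01 the fit called 122 members (20.2% of tested genes). DESeq2, limma (voom) and edgeR with the replicate number as a block each called all 123 (29.4%, 27.9% and 26.8% of tested genes). The rule used the same contrast, so nothing is read from these counts. The fitted log2 fold change of the members had a median of 3.67 and ran from 3.16 to 10.72, with standard errors between 0.16 and 0.92 and a median of 0.31. Over all tested genes the median log2 fold change was -0.04. It was 0.17 lower when library totals alone set the scale and 0.11 lower with upper quartile factors.

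The spread between replicates of the members was as follows. The coefficient of variation (SD over mean of the 3 libraries) had a median of 23.5% among members in control and 18.4% in heat. Over all genes with at least 10 CPM in the group it was 17.5% in control and 18.9% in heat, and over the 2326 genes with a heat mean at least as high as the lowest member's it was 16.0% in heat. Without control library 3 the members' control median was 14.4%. That value rests on fewer libraries, and the matching value for all genes was not computed, so it cannot be set against 17.5%. The difference between members and all genes was not tested, and the requirement of no overlap limits the members' spread in part. In 26 members the highest heat library was at least 2 times the lowest, and in 42 members the highest control library was at least 2 times the lowest control library.

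Heat library 2 was the lowest heat library for 62 of the 123 members (50.4%), heat library 1 for 39 and heat library 3 for 22. Among the same 2326 genes, heat library 2 was lowest for 35.7%. With TMM factors it was lowest for 76 members and for 52.3% of those genes. Of the 26 members with a 2-fold spread in heat, 19 were lowest in heat library 2, 7 in heat library 1 and none in heat library 3. The same split was not computed for other genes with such a spread. In control, library 2 was the highest for 66 members, close to its share among all genes past the floor (53.7% and 56.5%). With TMM factors it was the highest for 43 members and for 33.3% of genes past the floor. Control library 3 was the lowest for 69 members (56.1%, against 42.7% of genes past the floor), and for 65 with TMM factors (35.6% of genes past the floor). What sets these libraries apart was not tested.

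**Figure D5:**
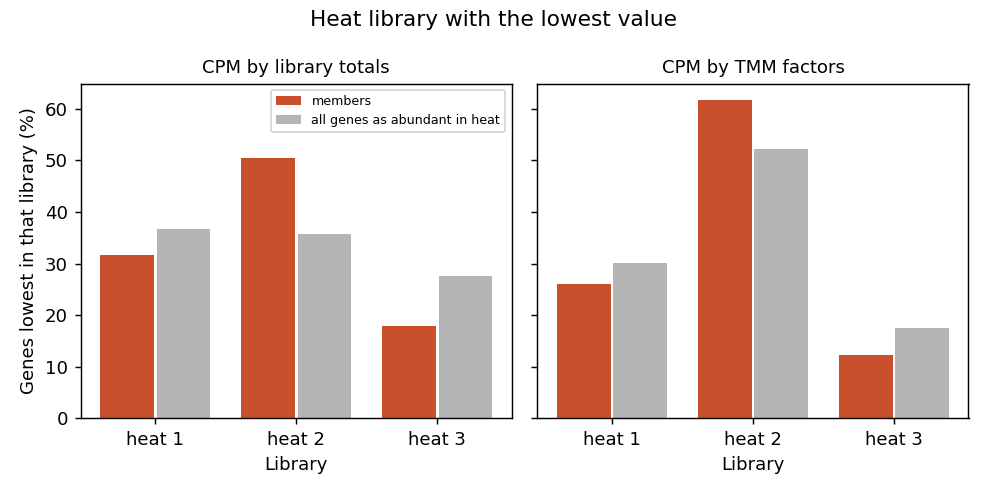
Percent of genes for which heat library 1, 2 or 3 had the lowest of the 3 heat values, for the 123 members (red) and for all 2326 genes at least as abundant in heat as the lowest member (grey), with CPM by library totals (left) and by TMM factors (right). Heat library 2 is the lowest most often among members, 50.4% of them by library totals.

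Single libraries moved the ratios of some members. The member of rank 13 stood at 249, 2397 and 2406 CPM in heat libraries 1 to 3, against 59.4, 50.7 and 77.8 CPM in control. Heat library 1 was thus nearer to the controls, and the ratio of 26.9 became 38.3 without it. Rank 49 was at 162, 304 and 855 CPM in heat, and its ratio of 16.6 fell to 8.79 without heat library 3. The largest standard error, 0.92, was that of rank 119. It stood at 13.9, 24.0 and 0.938 CPM in control, where library 3 held 8 counts, and at 212, 62.7 and 79.6 CPM in heat. Its ratio of 9.14 was 5.50 without heat library 1 and 15.9 without control library 2. In all, 12 members had a ratio that moved by over 1.5 times when some library was left out, 7 of them without control library 2. The rule was met by 79 of the 123 members whichever library was left out, and missed by 44 without some library. Ranks 13 and 49 stayed above 8-fold with any 1 library left out, and rank 119 did not.

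Identifier order was not part of the rule, and the members were spread through the list. They occurred under each of the identifier prefixes numbered 1 to 19, and 1 member under another prefix. Prefix 16 held 8 members among its 431 genes past the control floor (1.86%), prefix 2 held 15 among 929 (1.61%), and prefix 19 held 1 among 323 (0.310%), against 0.980% in all. No difference between prefixes was tested.

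Members made up 0.452% of all listed genes, and the count of neighbouring members in a random order was not computed. In the order of the list 6 members stood within 5 places of another member. Directly next to another member stood 4 members, as 2 pairs. POPTR_0010s20300 belonged to 1 of these pairs. The member listed just before it went from 11.2, 13.3 and 23.0 CPM in control libraries to 87.6, 116 and 178 CPM in heat libraries, a ratio of 8.05 against 1483. The gene listed just after it, which is no member, stood at 18.5, 23.4 and 18.5 CPM in control and at 2.34, 7.14 and 7.34 CPM in heat, a fitted log2 fold change of -1.67 (adjusted p = 0.00852, edgeR quasi-likelihood test). The 3 listed neighbours thus had similar control levels and very different heat levels. The other pair, of heat ranks 90 and 63, had ratios of 8.78 and 15.5. Near-identical copies and overlapping genes could share reads, since how reads that match several places were handled is not stated, and counts of such genes are uncertain.

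The genes listed directly beside the members, other than members, numbered 240, of which 171 were tested. Of these, 59 were called higher in heat (34.5%, against 28.1% of all tested genes) and 46 lower (26.9%, against 28.7%). Their median log2 fold change was 0.33, against -0.04 over all tested genes. Among the neighbours, 9 had a ratio of at least 8 but a control mean under 10 CPM, below the floor of the rule. The matching share of all listed genes is not given here. Whether the neighbours differ from all tested genes was not tested.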

How the data were processed

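Leaf RNA of 3 control and 3 heat libraries was sequenced. The authors deposited raw read counts per gene, 1 column per library, per the file headers. CASAVA 1.8, TopHat2 2.0.12 and HTSeq 0.6.1 are listed, with no role for each, per the submitters' processing notes. For the genome build, annotation and strand setting, the value is not given in the sources used here. Groups came from the sample titles, and each column was matched to the title that carries its name.

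CPM was computed from column totals, with no filter or pseudocount. All genes kept by filterByExpr defaults were fitted with edgeR 4.0.16 in R 4.3.3 (TMM factors, robust quasi-likelihood, group as the only term), with Benjamini-Hochberg adjustment over all tested genes and a threshold of 0.05. The standard error was the fitted log2 fold change over the square root of its F statistic. Alternatives used DESeq2 1.42.0, limma 3.58.1, other scalings and filters, a replicate block and each library left out. The tests were checked on simulated data. Totals between 6466647 and 8530622 counts set the precision of low counts.

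The members and the choice of summaries were made with earlier results of these data known. Because no identifier could be matched to a name, 2 members are named, by the highest heat mean and the next highest ratio, and lists of gene functions were not applied.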

Additional observations from a re-analysis of the deposited data

How the results depend on the processing

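The number of genes meeting the rule was 123, and followed its thresholds: 199 with a control floor of 5 CPM, 74 with 20 CPM, 447 at a ratio of 4 and 33 at a ratio of 16. It was 152, 157 and 129 with TMM, DESeq2 and upper quartile scaling, of which 120, 120 and 122 were among the 123, and between 117 and 140 with 1 library left out. The median fitted log2 fold change of the members, 3.67, was 3.48 with library totals only and between 3.60 and 3.83 with 1 library left out. The members' share of heat counts, 9.62%, was 7.64% without the 20 most abundant genes and 7.26% without the leading member. Of those 20 genes, 2 were members. The share was 9.93% without the libraries numbered 2, an alternative added after seeing the data. With 1 library left out, the median coefficient of variation lay between 14.4% and 28.2% in control and between 13.5% and 19.5% in heat. Without the filter, rank 119 missed the threshold (adjusted p = 0.0521, edgeR). The replicate block called all 123 members, with a median log2 fold change of 3.65. The labels give no sign that equal numbers pair libraries, and the deviations of libraries with the same number from the group means correlated at 0.0487, 0.0998 and 0.178; 3 of the 6 libraries correlated best with their own number. Both named members stayed past the threshold in all 34 alternatives run on them. The members were selected on this contrast, so this says little about stability. Depth limits the members with the fewest control counts.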
